A study of Mus musculus with 40 samples.

Results

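Skeletal muscle RNA was compared between male offspring that were all fed a high fat diet after weaning and differed in the diet of their dams: 10 animals born from dams fed high fat (HF_HF) and 10 born from dams fed low fat (LF_HF), 20 of the 40 arrays of the series. The members were taken from the maternal diet and the diet given in the labels, and all named genes of the array were examined. In the group names the dam's diet comes first and the offspring's own diet second. The mice were male, of a background given as C57BL\6 in the labels and C57BL/6J in the study's methods, and by the study's methods the tissue was thigh muscle at 9 weeks of age and the dams ate their diet before mating, through pregnancy and during nursing, so these periods cannot be told apart. The HF_HF animals came from 4 cages and the LF_HF animals from 4 other cages, and no cage held dams of both diets. Of 16593 genes with a name on the array, 8690 were bright enough to be tested (12467 probes, each above its array's median intensity in at least 20 of the 40 arrays). A gene is represented by its brightest tested probe, and changes are differences of log2 intensity, HF_HF minus LF_HF, with the standard error of the fit.

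Muscle takes up most of the glucose cleared after a meal and burns fat between meals. Its fibres are of slow, oxidative and fast, glycolytic kinds, held together by a collagen matrix made mainly by fibroblasts. The transcription factor Foxo1 links the supply of nutrients and insulin to protein loss: when insulin signalling is low or glucocorticoids are high, it drives the ubiquitin ligases Fbxo32 (atrogin-1) and Trim63 (MuRF1), the best known genes of muscle wasting. Maternal high fat feeding is studied because early nutrition can leave lasting marks on such programmes in the offspring.

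The arrays held muscle: all 8 myofibre markers (among them Acta1, Ckm and Ttn) were measured, and their summed intensity ranged over 151920 to 168290 in HF_HF and 148120 to 166020 in LF_HF arrays. Any 2 of these 20 arrays correlated at 0.976 to 0.996. The intensities of the 13230 dim, untested probes split the 40 arrays into sets of 17 and 23, which the labels do not name; set 1 held 5 HF_HF and 4 LF_HF arrays and set 2 held 5 and 6. One LF_HF array (replicate 6) stood apart in markers of macrophages: 12 of 15 were measured, their summed intensity was 20761 in that array, and over all arrays of a group it ranged over 3799 to 7804 in HF_HF and 3431 to 20761 in LF_HF. Results that rest on this array or on a set are given with and without it below. In whole tissue, fewer cells of a type and less RNA per cell cannot be told apart.

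The animals themselves differed early in life. HF_HF offspring were heavier at 3 weeks of age, near weaning, with 9.38 g, 11.6 g and 13.4 g as the lowest, median and highest weight, against 7.82 g, 9.08 g and 11.1 g in LF_HF offspring. The mean weight was 11.6 ± 1.25 g in HF_HF and 9.18 ± 1.00 g in LF_HF (SD, n = 10 each), a difference of 2.43 ± 0.51 g (SE; two-sided permutation test with 100000 resamples, adjusted p = 0.0014 over 5 measures), and 10 of 10 HF_HF animals were above the LF_HF mean. The gain to the second weight was 18.9 ± 1.36 g in HF_HF and 21.2 ± 1.40 g in LF_HF (SD, n = 10 each; permutation test, adjusted p = 0.0084), and 9 of 10 HF_HF animals gained less than the LF_HF mean. The gain is the second weight minus the weight at 3 weeks, so it is not a measure apart from the early difference. The labels call this second weight a weaning weight, although its values are those of grown mice.

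At that second weighing the difference lay within the spread between animals: the weight was 30.5 ± 1.68 g in HF_HF and 30.3 ± 1.86 g in LF_HF (SD, n = 10 each; permutation test, adjusted p = 0.807). Body length was 103 ± 1.06 mm in the 8 HF_HF animals measured and 102 ± 2.11 mm in the 10 LF_HF animals (SD; exact permutation test, adjusted p = 0.807). Blood glucose, taken after a fast by the study's methods, was 188.5 ± 42.9 mg/dl in HF_HF and 222 ± 29.3 mg/dl in LF_HF (SD, n = 10 each; permutation test, adjusted p = 0.0992), with 8 of 10 HF_HF animals below the LF_HF mean. Taking 1 value per cage, the differences were 2.36 g at 3 weeks and −2.42 g of gain, at exact permutation p = 0.0286 each, the smallest that 4 cages against 4 allow (adjusted p = 0.0714).

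**Figure D1:**
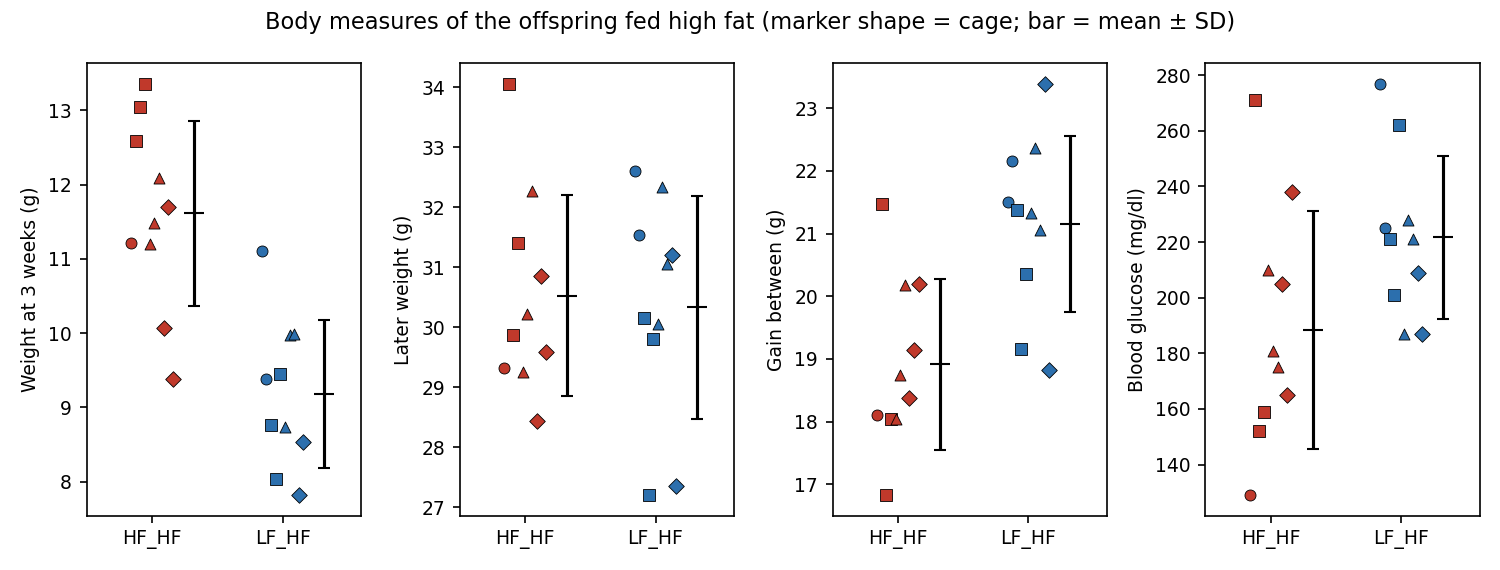
Weight at 3 weeks (g), the second, later weight (g), the gain between them (g) and blood glucose (mg/dl) of each animal in HF_HF (red, left) and LF_HF (blue, right); marker shapes stand for cages within a group and bars for the mean ± SD of 10 animals. HF_HF animals lie higher at 3 weeks (11.6 g against 9.18 g in mean) and lower in gain (18.9 g against 21.2 g), while the later weights overlap throughout.

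In muscle RNA, no probe passed the test between HF_HF and LF_HF: 0 of 12467 probes, or 0%, had an adjusted p under 0.05 (limma with Benjamini-Hochberg adjustment, smallest adjusted p = 0.197). At an unadjusted p under 0.05 there were 903 probes, 534 higher and 369 lower in HF_HF. Counted by gene these were 657 of 8690 genes or 7.56%, of which 387 (4.45%) were higher and 270 (3.11%) lower. The differences were small: the median gene differed by 0.05 on the log2 scale in either direction and the gene at the ninth decile by 0.13. In no gene did the 10 HF_HF arrays lie clear of the 10 LF_HF arrays (0%), and in 220 genes (2.53%) the means of the 4 HF_HF cages lay clear of those of the 4 LF_HF cages. A fit of the same contrast on all 40 arrays, which borrows the spread of the other diet groups, called 5 probes (0.0401%): Nudt18 and Inmt higher, Ppp1r27 and both probes of Tfrc lower. The genes described next are therefore those with the smallest p in each direction, given as values that did not pass the test.

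The 8 genes with the smallest p among those higher in HF_HF were 1.19 to 1.77 times as bright as in LF_HF, at adjusted p of 0.197 to 0.36 (limma). Nudt18, a Nudix hydrolase that breaks down oxidized guanine nucleotides, had 557, 680.5 and 781 as its lowest, median and highest intensity in HF_HF, against 431, 504 and 626 in LF_HF. All 10 HF_HF arrays were above the LF_HF mean, the 4 HF_HF cage means (629 to 751) were all above the 4 LF_HF cage means (444 to 552), and the single arrays still overlapped. The log2 change was 0.40 ± 0.07 (adjusted p = 0.197), 0.53 within array set 1 and 0.29 within set 2. In the fit on all 40 arrays Nudt18 reached adjusted p = 0.0278, within a range of 0.0256 to 0.998 over the alternatives tried.

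Inmt, a methyltransferase of indole amines, showed the largest change of these genes. Its intensity was 403, 591 and 1326 (lowest, median, highest) in HF_HF, against 262, 322 and 561 in LF_HF, a log2 change of 0.82 ± 0.18 (adjusted p = 0.211). All 10 HF_HF arrays lay above the LF_HF mean, but the cage means overlapped, since the lowest HF_HF cage was at 439 and the highest LF_HF cage at 491. Without HF_HF replicate 1, the only HF_HF animal of its cage and the brightest Inmt array, the change was 0.70. The fit on all 40 arrays gave adjusted p = 0.0278, the alternatives 0.0278 to 0.998.

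Pdp2, a phosphatase that switches the pyruvate dehydrogenase complex on and so opens the entry of glucose carbon into the citrate cycle, had 282, 395 and 616 in HF_HF, against 191, 287 and 339.5 in LF_HF. All 4 HF_HF cage means lay above the LF_HF ones, and the log2 change was 0.52 ± 0.12 (adjusted p = 0.211). With the slow fibre score as a covariate it was 0.66 (adjusted p = 0.0286, the alternatives ranging up to 0.998). Its second probe differed less, by 0.22.

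Gadd45a, a stress-induced gene that also rises in muscle wasting, had 544, 568 and 884 in HF_HF, against 330, 475 and 556 in LF_HF. The groups met over a short stretch only, the cage means did not overlap, and the change was 0.43 ± 0.10 (adjusted p = 0.308). Hr (hairless, a corepressor of nuclear receptors) had 1902, 2108 and 2721 in HF_HF against 1488, 1712 and 2020 in LF_HF, a change of 0.30 ± 0.06 (adjusted p = 0.211). The remaining genes of this direction were Cyp27a1, the mitochondrial sterol 27-hydroxylase (0.35 ± 0.08), Mospd1, a membrane protein of the endoplasmic reticulum (0.26 ± 0.06), and Lrig1, a brake on growth factor receptors (0.25 ± 0.06). In each of these 8 genes all 10 HF_HF arrays lay above the LF_HF mean, and in 5 of them the cage means lay apart; since the genes were ranked on these same arrays, nothing is read from those counts.

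Among the genes lower in HF_HF, Ppp1r27, a regulatory subunit of protein phosphatase 1, had the smallest p. Its intensity was 2277, 2815 and 4212 (lowest, median, highest) in HF_HF, against 3290, 4343 and 5820 in LF_HF, a log2 change of −0.57 ± 0.11 (adjusted p = 0.211). All 10 HF_HF arrays lay below the LF_HF mean and the groups overlapped, as did the cage means. The change was −0.70 within array set 1 and −0.44 within set 2. The fit on all 40 arrays gave adjusted p = 0.0278, and leaving out cage 23 gave −0.71 (adjusted p = 0.00714, the alternatives 0.00714 to 0.998).

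Tfrc, the transferrin receptor through which cells import iron, was also lower in HF_HF. It had 847, 1229 and 1681 in HF_HF, against 1414, 1813 and 2066 in LF_HF, and the 4 HF_HF cage means (847 to 1375) all lay below the 4 LF_HF cage means (1418 to 1954). The change was −0.50 ± 0.11 (adjusted p = 0.211), −0.47 for the second probe, −0.48 within array set 1 and −0.52 within set 2. In the fit on all 40 arrays it reached adjusted p = 0.0323, the smallest of its alternatives, which ranged up to 0.998. Of the 9 iron handling genes measured, Tfrc was the 1 gene lower at an unadjusted p under 0.05, none was higher at that p, and the list's median change was −0.01.

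The other genes of the lower direction were dimmer and differed by less. Dcakd, named for its dephospho-CoA kinase domain, had 369, 452 and 536 in HF_HF against 451.5, 561 and 632 in LF_HF, a change of −0.30 ± 0.07 (adjusted p = 0.211). Meox1, a homeobox factor known from the somites, differed by −0.26 ± 0.06, and Tcim, a small regulator linked to Wnt signalling, by −0.27 ± 0.07. Tmem184b, a membrane protein, Mboat1, a lysophospholipid acyltransferase, and Gprc5c, an orphan receptor, differed by −0.25 ± 0.06, −0.23 ± 0.05 and −0.24 ± 0.06. Meox1, Tcim, Mboat1 and Gprc5c were dim, with median intensities of 121, 135, 110 and 105 in HF_HF. The median intensity over all probes and arrays was 75.7. The adjusted p of the 8 genes ran over 0.211 to 0.331 (limma). All 16 genes of both directions kept their sign within array set 1 and within array set 2, and with weight at 3 weeks as a covariate. The genes were ranked on these same arrays, which favours a kept sign, so nothing is read from this.

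**Figure D2:**
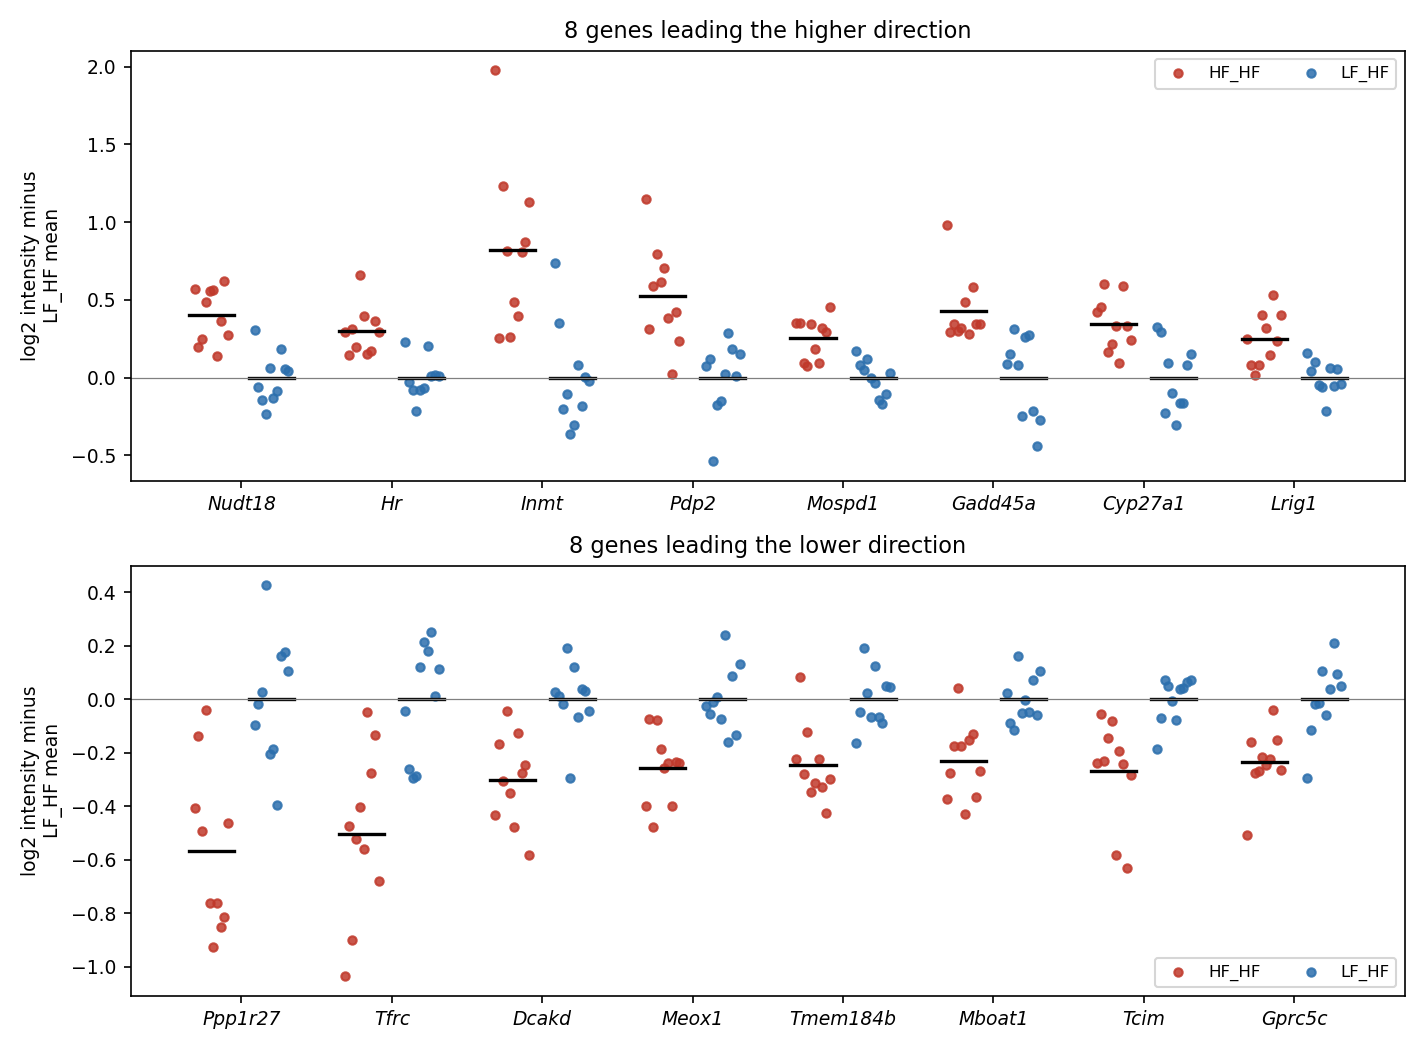
Log2 intensity of each array minus the LF_HF mean, for the 8 genes with the smallest p higher in HF_HF (top) and lower in HF_HF (bottom); HF_HF arrays in red, left, LF_HF arrays in blue, right, black lines the group means. The group means differ by up to 0.82 (Inmt) and by −0.57 (Ppp1r27), and in every gene the 2 clouds of points overlap.

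Gene lists drawn up by pathway and cell type showed where members leaned together. List members named from here on were chosen after their values were seen, unless they are among the genes above. All 12 measured collagen chains were lower in HF_HF, 9 of them at an unadjusted p under 0.05 (3.11% of all tested genes were lower at that p), with a median change of −0.28 against 0.00 over all genes. Col3a1, a fibrillar collagen of loose connective tissue, had 115, 197 and 446 (lowest, median, highest) in HF_HF, against 193, 301 and 578 in LF_HF, a change of −0.68 ± 0.23 (adjusted p = 0.459), and its second probe differed by −0.33 ± 0.11. Col5a1, which seeds collagen fibrils, had 276, 377 and 485 in HF_HF, against 404, 468 and 1041 in LF_HF. Its change was −0.47 ± 0.14 (adjusted p = 0.411), and the HF_HF cage means all lay below the LF_HF ones. None of the 12 passed the adjusted test.

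The basement membrane and microfibril chains were lower too, Col4a2 by −0.28 ± 0.10 and Col6a2 by −0.29 ± 0.10. Of 25 other matrix and tendon genes 21 were lower, 5 at that p and none higher at it, with a median of −0.14; elastin (Eln) was the one with the smallest p, with 126, 149 and 193 in HF_HF against 154, 184 and 226 in LF_HF (−0.28 ± 0.07, adjusted p = 0.381). The brightest LF_HF array in Col5a1 was replicate 6, the array high in macrophage markers. Without it, 11 of 12 collagens were lower, 7 at that p, the median was −0.23, Col5a1 was at −0.36 and the matrix list at −0.08; 11 of 12 macrophage markers were lower in HF_HF with it (none at that p, median −0.11) and 10 of 12 were higher without it (median 0.03). The collagen median was −0.34 within array set 1, where 10 chains were lower at that p, and −0.19 within set 2, where 1 was. The matrix count of 5 (Eln, Loxl1, Fstl1, Scx and Serpinh1) was 3 without HF_HF replicate 1, 5 or 9 and 8 without LF_HF replicate 9. With weight at 3 weeks as a covariate the collagen median was −0.15 and 1 chain was lower at that p. The part of early weight, of other cells and of the array set in these values was not tested.

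The slow fibre genes leaned further but not in both array sets. All 14 measured were lower in HF_HF, 8 at an unadjusted p under 0.05, with a median of −0.51. Among all tested genes 51.2% were higher, and 3.11% were lower at that p. Tnnc1, the calcium-binding troponin of slow and cardiac muscle, had 666, 3527 and 9144 in HF_HF, against 2046, 7349 and 12699 in LF_HF, and the arrays overlapped over most of that range. Its change was −0.90 ± 0.41 (adjusted p = 0.644). Tpm3, the slow tropomyosin, differed by −0.87 ± 0.33, Atp2a2, the slow calcium pump, by −0.53 ± 0.25, and Casq2, a calcium store protein, by −0.30 ± 0.10. The list's score, the mean log2 deviation of its genes from their 40-array means, was 0.09 ± 0.60 in HF_HF and 0.54 ± 0.49 in LF_HF (SD, n = 10 each).

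Within array set 1 the slow fibre median was −1.22, with 14 of 14 genes lower, and within set 2 it was 0.10, with 10 of 14 higher. The count of 8 depended on single arrays: it was 2 without HF_HF replicate 8 or LF_HF replicate 10, and 3 to 5 without HF_HF replicate 2, 5, 9 or 10 or LF_HF replicate 2, 4, 5, 7 or 8. A piece of thigh muscle holds slow and fast fibres in shares that depend on where it is cut, and the part of sampling in this spread was not tested. The 16 fast fibre genes showed no such lean, with 10 higher, 6 lower and a median of 0.02.

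**Figure D3:**
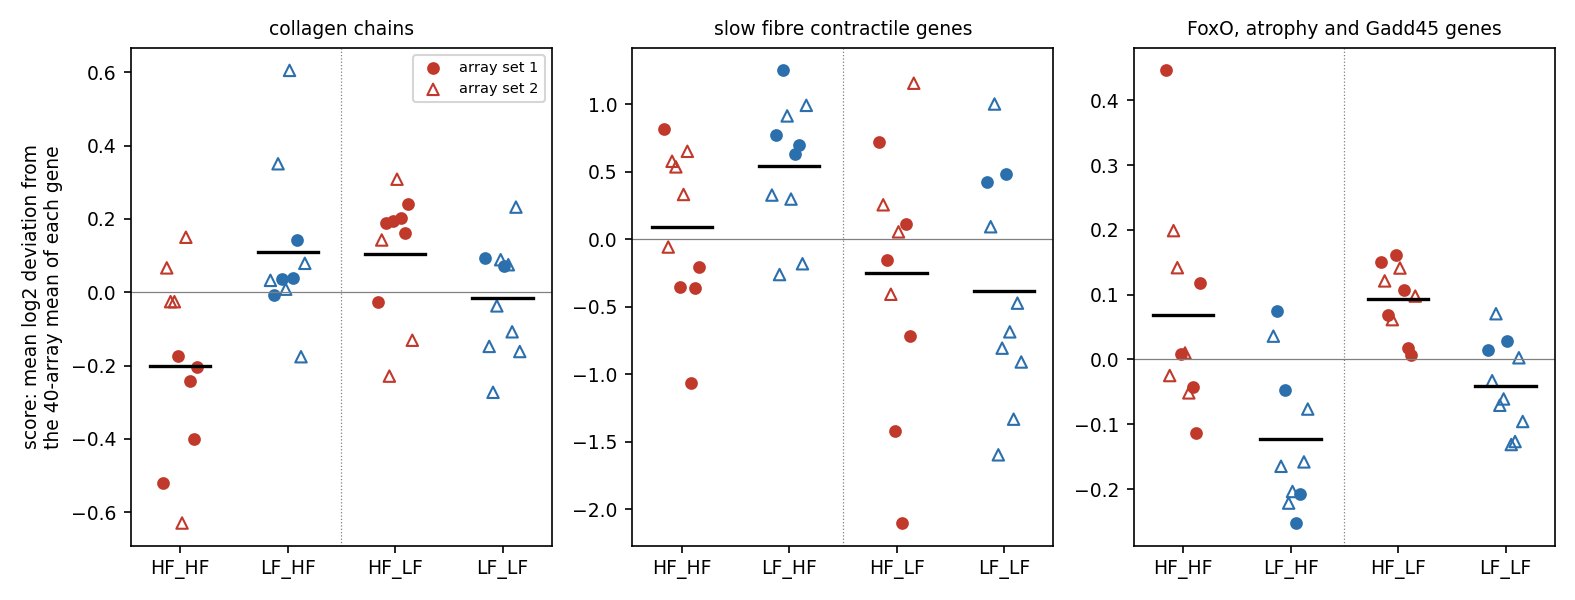
Score of each array (mean log2 deviation of a list's genes from their means over 40 arrays) for collagen chains, slow fibre genes and FoxO and atrophy genes, in HF_HF, LF_HF, HF_LF and LF_LF; filled circles are arrays of set 1, open triangles of set 2, black lines group means. Collagen scores average −0.20 in HF_HF against 0.11 in LF_HF; slow fibre scores of HF_HF and LF_HF lie apart mostly among the circles.

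None of the genes that answer mechanical load or heat stress passed the adjusted test over all 20 arrays. Of 14 genes of mechanical stress and remodelling 13 were lower, 6 at an unadjusted p under 0.05, and the 1 gene higher, Ahnak, a large scaffold protein, was so at that p. Among all tested genes 51.2% were higher, 4.45% at that p, and 3.11% were lower at it. Actc1, the cardiac actin that fetal and remodelling muscle also makes, had 1950, 2775 and 3558 (lowest, median, highest) in HF_HF, against 2121, 3765 and 7722 in LF_HF (−0.51 ± 0.17, adjusted p = 0.459). Xirp1, an actin-binding protein of muscle junctions, differed by −0.36 ± 0.12, and Rcan1, an inhibitor and target of calcineurin, by −0.44 ± 0.14. Without cage 23, Rcan1 passed at −0.66 (adjusted p = 0.0411, the alternatives 0.0411 to 0.998). Over the alternatives tried, the change of Rcan1 ran from −0.83 to −0.08. The list's median was −0.13, with −0.31 within array set 1 and −0.01 within set 2, where 7 were higher and 7 lower. It was −0.08 without LF_HF replicate 6, where 8 of 14 were lower, and −0.19 to −0.20 without HF_HF replicate 1 or 4 or LF_HF replicate 9.

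Of 27 heat shock proteins and co-chaperones 25 were lower in HF_HF, 5 at an unadjusted p under 0.05, with a median of −0.11. Among all tested genes 51.2% were higher, and 3.11% were lower at that p. A lean to lower values was not particular to this list, as 54 of 68 mitochondrial ribosomal proteins were lower too, none at that p. Hspa1a, the inducible Hsp70, had 109, 169 and 226 in HF_HF, against 180, 212 and 395 in LF_HF, a change of −0.46 ± 0.14 (adjusted p = 0.427). Its co-chaperone Dnajb1 differed by −0.19 ± 0.06. The list median was alike in both array sets, −0.09 and −0.13. The count of 5, which also took in Hsp90aa1, Hspb3 and Dnajb4, was 3 without HF_HF replicate 3 or LF_HF replicate 9 and 9 without LF_HF replicate 1. Tuba1a, an alpha tubulin, was also lower, with 239.5, 298 and 513 in HF_HF against 378, 413 and 696 in LF_HF (−0.47 ± 0.12, adjusted p = 0.374). Without LF_HF replicate 6, the brightest LF_HF array in Tuba1a, the change was −0.40.

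In the higher direction, the genes of protein loss and FoxO leaned together. Of 17 measured, 13 were higher in HF_HF, 8 of them at an unadjusted p under 0.05 (4.45% of all tested genes were higher at that p), and none was lower at it. Fbxo32 had 1268, 1910 and 5369 (lowest, median, highest) in HF_HF, against 836, 1173 and 2066 in LF_HF, a change of 0.75 ± 0.23 (adjusted p = 0.427). Trim63 had 777, 1078 and 3000 in HF_HF, against 513, 793 and 1316 in LF_HF, a change of 0.53 ± 0.21 (adjusted p = 0.562). Foxo1 itself had 161, 224 and 274 in HF_HF, against 134, 172.5 and 218 in LF_HF, a change of 0.33 ± 0.10 (adjusted p = 0.411). In all 3 genes 9 of 10 HF_HF arrays were above the LF_HF mean, and the groups overlapped.

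HF_HF replicate 1 held the highest Fbxo32 value of this comparison. Without it the changes were 0.60 for Fbxo32, 0.38 for Trim63, 0.30 for Foxo1 and 0.37 for Gadd45a, all in the same direction. The list's median was 0.12 over all arrays, 0.19 within array set 1 and 0.11 within set 2, so its direction was the same in both sets. The count of 8 was 6 without LF_HF replicate 5 and 7 without LF_HF replicate 6. It was 4 within array set 1, 7 within set 2 and 4 with 1 value per cage.

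Genes around insulin signalling that neighbour FoxO leaned in several ways, and the list of 21 as a whole did not (median 0.03; Pik3r1, Slc2a3 and Eif4ebp1 higher and Trib2 lower at an unadjusted p under 0.05). Pik3r1, the regulatory subunit of PI 3-kinase, had 585, 730 and 1254 in HF_HF, against 468, 562 and 780 in LF_HF (0.38 ± 0.11, adjusted p = 0.411), and all 10 HF_HF arrays were above the LF_HF mean. Eif4ebp1, which holds back translation until mTOR phosphorylates it, differed by 0.34 ± 0.10. Trib2, a pseudokinase, differed by −0.30 ± 0.09. Of 13 growth hormone, STAT5 and SOCS genes 4 were higher and 9 lower (median −0.04), with Jak2, a cytokine receptor kinase, higher (0.22 ± 0.08) and Socs3 and Bcl6 lower at that p. Socs3, a feedback inhibitor of cytokine signalling, had 104, 115 and 163 in HF_HF, against 112, 185 and 303 in LF_HF (−0.62 ± 0.17, adjusted p = 0.381), and Bcl6, a transcriptional repressor, differed by −0.36 ± 0.11.

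Some glucocorticoid-responsive and clock genes were higher in HF_HF. Of all tested genes 51.2% were higher, 4.45% at an unadjusted p under 0.05. Of 18 glucocorticoid-responsive genes 13 were higher, 4 at an unadjusted p under 0.05 and none lower at it, with a median of 0.09, which was 0.03 within array set 1, where 9 were higher and 9 lower, 0.12 within set 2, and 0.04 without HF_HF replicate 4. Fkbp5, a co-chaperone that the glucocorticoid receptor induces, had 242, 360.5 and 445 in HF_HF, against 225, 255 and 336 in LF_HF (0.36 ± 0.10, adjusted p = 0.41). Klf9, another target of that receptor, differed by 0.17 ± 0.06.

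Of 13 core clock genes 8 were higher, against 51.2% of all tested genes. At that p 5 were higher (4.45% of all tested genes were) and none lower, and the median was 0.13. Within array set 1 the median was 0.17, with 4 higher and none lower at that p, and within set 2 it was 0.06, with 2 higher and 2 lower at it. Rora, which activates Bmal1 (Arntl on this array), had 826, 1046 and 1320 in HF_HF, against 712, 837 and 961 in LF_HF (0.30 ± 0.08, adjusted p = 0.364). Cry2, a repressor of the clock, differed by 0.22 ± 0.06 and Per1, which is also a glucocorticoid target and stands in both lists, by 0.30 ± 0.12. The hour at which each animal was killed is not given in the sources used here.

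Of the lists of fat and energy metabolism, the field the diets address most directly, several showed little difference between the groups and others leaned. Of 18 genes of mitochondrial beta-oxidation none reached an unadjusted p under 0.05 in either direction (median −0.05), and the same held for the 32 complex I genes (median −0.02), the 15 genes of cholesterol synthesis and uptake (median −0.03) and the 10 PPAR, PGC-1 and ERR regulators (median 0.00). Of 35 genes of complexes III to V 26 were lower, 3 at that p (Cox6a1, Cox8a and Atp5j2; median −0.05), and that count was 1 without HF_HF replicate 3, 6, 8 or 10 or LF_HF replicate 6 or 9, 6 without HF_HF replicate 7 and 5 without LF_HF replicate 5. Of 12 genes of fatty acid uptake 3 were higher at that p (Acsl4, Angptl4 and Vldlr) and none lower (median 0.11, but 0.03 within array set 1 and 0.05 within set 2). Of all tested genes 51.2% were higher, 4.45% at that p, and 3.11% were lower at it. Of 18 citrate cycle genes 16 were lower, 1 at that p (median −0.04, but −0.005 within array set 1 and −0.07 within set 2). Of 13 lipid droplet genes and lipases 2 were higher and 1 lower at that p. The 11 pyruvate dehydrogenase genes also had 2 higher and 1 lower at it. Among lipid genes, Plin4, a coat protein of lipid droplets, had 2833, 3643 and 5898 in HF_HF, against 2121, 2914 and 3874 in LF_HF (0.38 ± 0.12, adjusted p = 0.452).

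Of 13 mitochondrial carriers and uncoupling proteins 7 were higher and 6 lower (median 0.03); at that p Ucp3 (0.23 ± 0.09) and Slc25a30 (0.46 ± 0.18) were higher and Slc25a5, the ADP/ATP carrier, lower (−0.16 ± 0.07). The cage means of Ucp3 and of Slc25a30 overlapped between the groups. Those of Slc25a30 ran over 189 to 345 in HF_HF and 166 to 351 in LF_HF. The white adipocyte markers, of which 5 of 9 were measured, were higher in 4 genes, none at that p, with a median of 0.14. Without HF_HF replicate 1 only 2 of the 5 were higher and the median was −0.04, and it was 0.03 to 0.07 without HF_HF replicate 7 or LF_HF replicate 6 or 10 and 0.25 without HF_HF replicate 4 or LF_HF replicate 2. Their summed intensity ranged over 5502 to 10956 in HF_HF and 3489 to 10728 in LF_HF. The part of fat cell RNA in the lipid gene values was not tested.

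**Figure D4:**
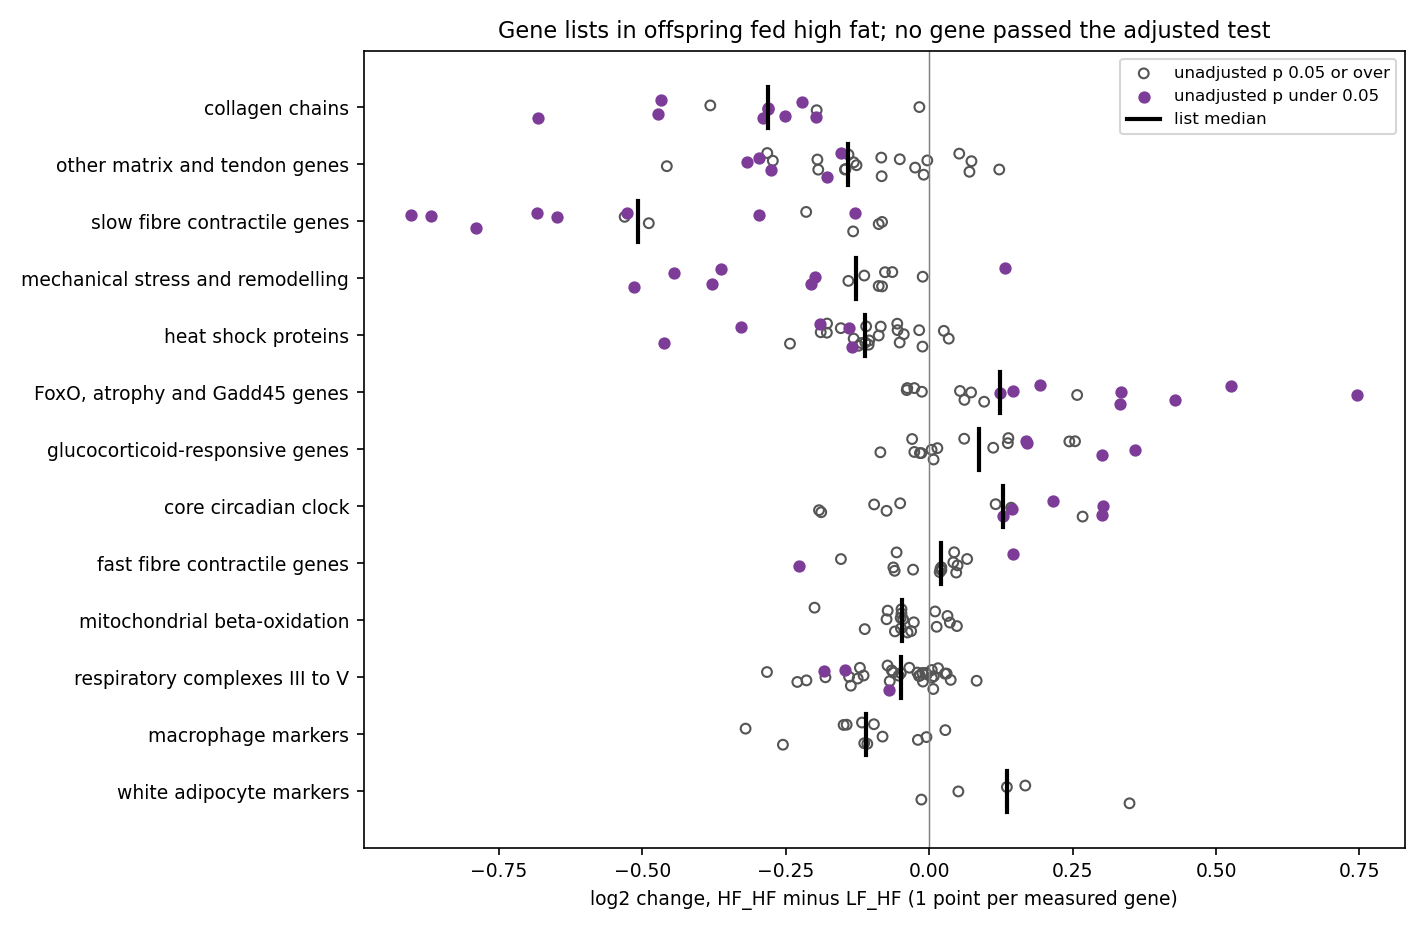
Log2 change (HF_HF minus LF_HF) of every measured gene in 13 lists, 1 point per gene; filled points have an unadjusted p under 0.05, black bars are list medians. All collagen (median −0.28) and slow fibre genes (median −0.51) lie left of 0, most FoxO and atrophy genes right of it (median 0.12), and beta-oxidation genes around it (median −0.05).

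The same maternal contrast was made in animals fed low fat after weaning, 10 from dams fed high fat (HF_LF) and 10 from dams fed low fat (LF_LF). They share no array with the comparison above, but 3 of the HF dam cages and 2 of the LF dam cages gave animals to both. There 2 of 12467 probes passed (0.016%): Map3k6, a stress kinase, at 0.50 ± 0.08 (adjusted p = 0.0229), and Sox13, a transcription factor, at 0.23 ± 0.04 (adjusted p = 0.0415, limma). With the array set as a block neither passed. In offspring fed high fat these genes differed by 0.24 ± 0.09 and 0.09 ± 0.05 (adjusted p = 0.533 and 0.762).

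Of the 657 genes at an unadjusted p under 0.05 in offspring fed high fat, 459 (69.9%) had the same sign in offspring fed low fat, against 53.9% of the other genes; 98 had that p and the same sign in both and 12 had that p with opposite signs. Over all 8690 genes the share was 55.1% and the changes correlated at 0.196, which is across genes that are not independent and share cages. In offspring fed low fat 750 of all tested genes (8.63%) had an unadjusted p under 0.05. Their sign was the same as in offspring fed high fat in 502 and opposite in 248. Of the 16 leading genes 15 kept their sign. For the 8 higher ones this was 8 of 8, 5 at an unadjusted p under 0.05, among them Nudt18 (0.25 ± 0.08), Hr (0.26 ± 0.08), Inmt (0.29 ± 0.11) and Gadd45a (0.28 ± 0.10). For the 8 lower ones it was 7, with Ppp1r27 at −0.23 ± 0.09 and Tfrc at −0.04 ± 0.08.

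The FoxO and atrophy list and the glucocorticoid list had positive medians in offspring fed low fat too, 0.07 and 0.15. In HF_LF against LF_LF, 6 of the 17 FoxO and atrophy genes and 9 of the 18 glucocorticoid-responsive genes were higher at an unadjusted p under 0.05 and none was lower at it, where 8.63% of all genes had that p in either direction. Fbxo32 had a median intensity of 1863 in HF_LF and 1350 in LF_LF (0.51 ± 0.12, adjusted p = 0.135), Foxo1 of 273 in HF_LF and 189 in LF_LF (0.59 ± 0.14, adjusted p = 0.132) and Fkbp5 of 482 in HF_LF and 291 in LF_LF (0.73 ± 0.16, adjusted p = 0.107). Trib2 was lower in both diets, in offspring fed low fat by −0.48 ± 0.09 (adjusted p = 0.0534). None of these passed the test in either diet in the main fits. With a stricter filter, robust variance or array weights Trib2 passed in offspring fed low fat, and with array set as a block it did not.

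The collagens did not show this. In offspring fed low fat their median change was 0.09, Col3a1 was at 0.41 ± 0.21 and Col5a1 at 0.07 ± 0.09, and none of the 12 reached an unadjusted p under 0.05. The difference between the 2 maternal contrasts was tested for every probe as an interaction on all 40 arrays, and 0 of 12467 probes passed (0%), with 647 at an unadjusted p under 0.05 and a smallest adjusted p of 0.162; by gene, 446 (5.13%) had that p. Of the 12 collagens 7 had that p, with Col3a1 at −1.09 ± 0.32 (adjusted p = 0.908). The interaction includes the HF_HF against LF_HF difference for which the lists of this paragraph were described, which favours such counts. The second Col3a1 probe differed by 0.01 in offspring fed low fat and its interaction was −0.34. Heat shock and slow fibre genes had positive medians in the low fat fed animals, 0.03 and 0.14, and 3 of 27 and 1 of 14 had that p for the interaction.

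The 5 named genes with the smallest interaction p had opposite signs in the 2 diets, which the choice by that p favours, and none passed the test. Tppp3, which promotes the polymerization of tubulin, had 244, 266 and 287 (lowest, median, highest) in HF_HF, against 246, 310 and 388 in LF_HF, a change of −0.21 ± 0.07. In offspring fed low fat its median was 298 in HF_LF and 247 in LF_LF, a change of 0.27 ± 0.07, and the interaction was −0.48 ± 0.10 (adjusted p = 0.162). Vldlr, the receptor for triglyceride-rich lipoproteins, had 3589, 4285 and 4752 in HF_HF, against 2966, 3562 and 3952 in LF_HF (0.24 ± 0.07, adjusted p = 0.381), with all 10 HF_HF arrays above the LF_HF mean. Its change in offspring fed low fat was −0.08 ± 0.05, and all 5 of its probes were higher in HF_HF.

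Dhdh, a dihydrodiol dehydrogenase, was at 0.19 ± 0.07 in offspring fed high fat and −0.19 ± 0.07 in those fed low fat. Fam171b was at −0.09 ± 0.05 and 0.17 ± 0.05, and Dhrsx, a short-chain dehydrogenase, at −0.14 ± 0.05 and 0.06 ± 0.04, although its second probe pointed the other way (0.04) in offspring fed high fat. The adjusted p of the interaction was 0.908 for each of these genes and for Vldlr.

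**Figure D5:**
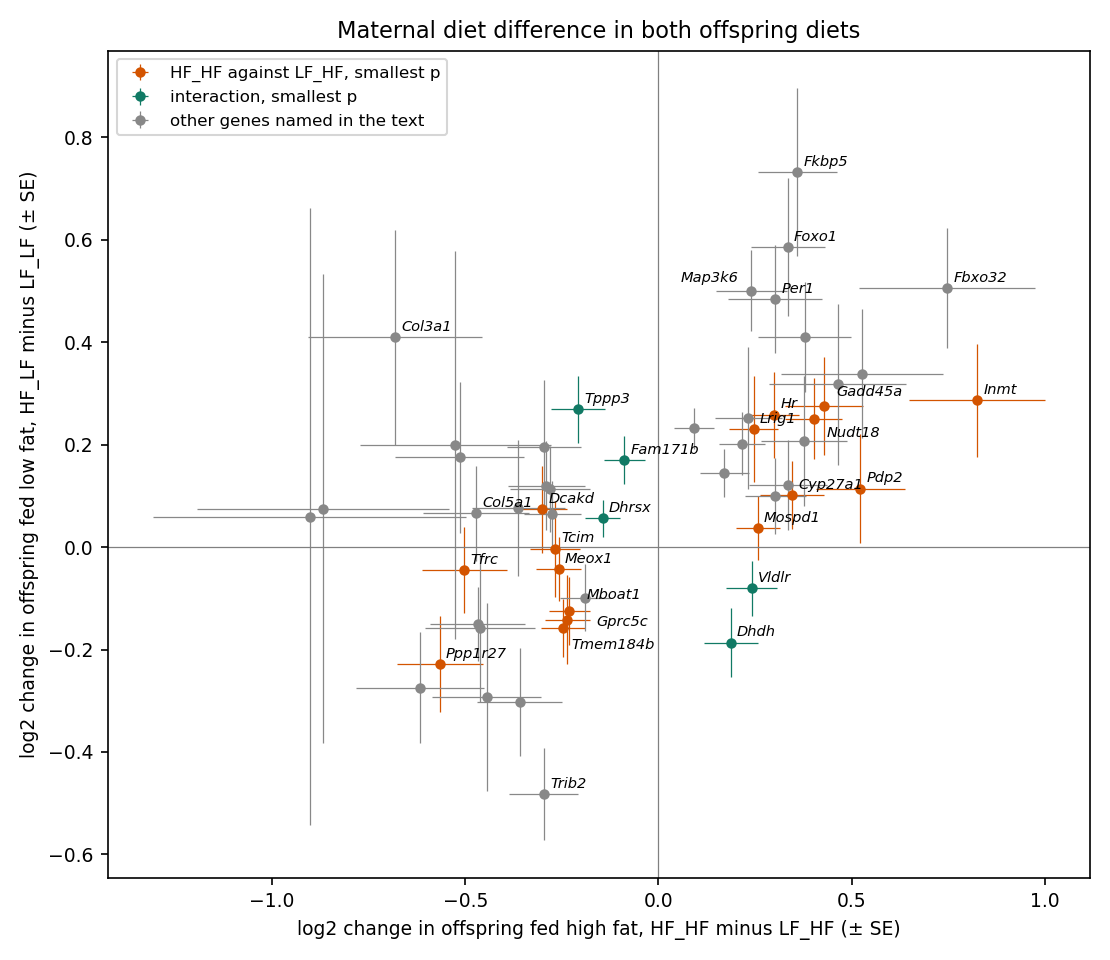
Log2 change between offspring of dams fed high fat and low fat for 54 of the genes named in the text, with standard errors. The horizontal axis shows offspring fed high fat (HF_HF minus LF_HF) and the vertical axis those fed low fat (HF_LF minus LF_LF). 15 of the 16 leading genes (orange) lie in the quadrants of equal sign, and the 5 leading interaction genes (green) in those of opposite sign.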

How the data were processed

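RNA of thigh muscle from 40 mice was hybridized by the authors to MouseRef-8 v2.0 beadchips, 1 animal per array. The deposited table holds intensity values, which by the study's methods the authors quantile-normalized over the 40 arrays of the tissue; sorted values of any 2 arrays differed by at most 0.5. The submitters' processing notes name BeadStudio. Arrays carry no detection p here, so precision rests on the number of arrays. Columns were assigned to samples by the column names, which are the sample identifiers, and groups by the maternal diet and diet labels. Of 25697 probes 23978 had 1 gene symbol in the platform annotation and 1719 had none.

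Intensities were log2-transformed and tested with limma 3.58.1 in R 4.3.3 (lmFit, eBayes with an intensity trend, two-sided, Benjamini-Hochberg over the tested probes, adjusted p under 0.05), fitted on the 20 arrays compared and, for the interaction, on all 40; the script was tested on simulated data. Animals of a cage may be littermates, so p-values over animals can be too small. The named genes are the 8 smallest p in each direction (fewer than 4 genes were called) and the 5 smallest p of the interaction, without unnamed or clone probes. For a list, counts and medians over its measured genes are given with no test. The members and lists were chosen with earlier results of these data known. Body measures were compared by permutation in Python 3.11.15 with scipy 1.17.1. Alternatives changed the filter, normalization, background, offset, variance model, array weights, array set, cage, covariates and the arrays or cages left out.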

Additional observations from a re-analysis of the deposited data

Results flagged for a closer look

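In 144 groups of values checked (each named gene, described list and body measure in HF_HF and in LF_HF), 10 had 1 sample far from the other 9, where chance gives about 1 in 20. HF_HF replicate 1 was highest in Gadd45a (intensity 884, next 671) and Pik3r1 (1254, next 844) and lowest in Gprc5c (87.1, next 102). LF_HF replicate 6 was highest in Col5a1 (1041, next 577), Tuba1a (696, next 515), the score of the other matrix and tendon genes (0.59, next 0.21) and the macrophage marker score (1.39, next 0.16). HF_HF replicate 5 was highest in Hr (2721, next 2273). LF_HF replicate 5 was lowest in Dcakd (451.5, next 529). HF_HF replicate 8 was lowest in Atp2a2 (1561, next 3874).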

How the results depend on the processing

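For HF_HF against LF_HF no paired analysis was possible because the labels give no replicate numbers and each cage belongs to 1 maternal diet. The count of 0 probes for HF_HF against LF_HF was 5 in 1 fit on all 40 arrays, 1 with later body weight as a covariate (Nudt18) and 1 with the slow fibre score as a covariate (Pdp2). Leaving out 1 array gave 0 or 1 (1 without LF_HF replicate 1, Nudt18) and leaving out 1 cage 0 to 4 (4 without cage 23). The other settings, cage as a random block included, gave 0. The 903 probes at an unadjusted p under 0.05 became 563 with 1 value per cage and 549 with weight at 3 weeks as a covariate; leaving out 1 array or cage gave 581 to 1146, lowest without cage 9. The 2 probes of HF_LF against LF_LF were 1 with no filter, 5 with the stricter filter, 4 with robust variance or array weights, and 0 with array set as a block or within either set. The interaction stayed at 0 in its 12 alternatives. No alternative for the interaction or for HF_LF against LF_LF took cage into account. Yet 3 HF dam cages and 2 LF dam cages gave animals to both offspring diets.

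Of the genes, Tnnc1 (0.12) and Atp2a2 (0.036) turned sign within array set 2 and Dhrsx (0.0378) at its second probe. The slow fibre median of −0.51 was −1.22 within set 1 and 0.10 within set 2. With 1 value per cage, 3-week weight (2.36 g) and gain (−2.42 g) no longer passed after adjustment. The difference in later weight turned sign as a difference of medians (−0.56 g) and per cage (−0.0613 g), and length as a difference of medians (−0.5 mm). The glucose difference of medians (−43.0 mg/dl) passed (adjusted p = 0.0133). Animals share cages and cage lies within maternal diet, so cage and dam's diet rest on 4 cages against 4, and small changes are limited by that number and by the spread between array sets, whose cause was not tested.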
